A study of Mus musculus with 8 samples.

Results

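The Runx transcription factors Runx1, Runx2 and Runx3 and their shared partner Cbfb were examined in total RNA sequencing of tibialis anterior (TA) muscles. The 4 genes were taken by symbol from a table of 55401 genes, and as a family they had been chosen by their difference between these same muscles, so that difference is given below as a description and without a test. There were 4 muscles of wild-type (WT) mice of the C57/Bl6 strain (C57BL/6J in the study's methods) and 4 of mdx5cv mice on the same strain, all 6 mo old and, by the general statement of the methods, male. The mdx5cv mouse is a model of Duchenne muscular dystrophy that carries a germline mutation of Dmd, the dystrophin gene, in every cell, so the mutation is not limited to muscle fibers. No muscle was treated. The labels list the muscles as separate samples without saying in so many words that each came from another mouse, so p-values measure the spread between these samples.

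Runx proteins bind DNA through the runt domain, most often at the core sequence TGTGGT, and either raise or lower transcription according to the proteins they recruit. Cbfb does not touch DNA. It binds the runt domain, strengthens its hold on DNA and protects Runx proteins from degradation. Runx1 is known for blood stem cell formation and, in muscle, as a gene that is switched on by loss of the nerve and in injured muscle, where it acts together with MyoD and AP-1. Runx2 is the master regulator of bone formation, and Runx3 is known for T cell and sensory neuron development. Each Runx gene has a distal and a proximal promoter, from which proteins with different first residues are made.

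The distal promoters of the 3 Runx genes held a common stretch, which is shown because it carries the family's own binding core 2 times. In RefSeq promoters of the GRCm38.p6 build (250 bases before to 50 bases after the start site), the 18 bases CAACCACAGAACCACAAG were identical in Runx1, Runx2 and Runx3. The 30 bases around it are given 5′ to 3′ on the strand of each gene, and the capitals mark ACCACA, which is TGTGGT read from the opposite strand.
Runx1 distal, chr16:92826028-92826057 (minus strand): cctcataaacaACCACAgaACCACAagttg
Runx2 distal, chr17:44814586-44814615 (minus strand): cctcacaaacaACCACAgaACCACAagtgc
Runx3 distal, chr4:135120500-135120529 (plus strand): ctggtccctcaACCACAgaACCACAaggcc
In Runx1 the run covered bases 18 to 47 after the start site, and in Runx2 bases 13 to 42. By the GENCODE M21 annotation it lay in the first exon of both genes, in the 5′ UTR of Runx1, and in Runx2 in sequence that was untranslated in some transcripts and coding in others. In Runx3 it lay upstream, from 145 to 116 bases before the start site, in no annotated gene. Of 32851 promoters in the RefSeq table, 4 held the 18 bases, and the remaining one was that of Gm16225, a noncoding RNA which runs away from Runx3 on the opposite strand with a gap of 0.205 kb and therefore shares the same DNA.

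TGTGGT, sought on both strands, was found 2 times in the distal promoter of Runx1, 3 times in that of Runx2 and 2 times in that of Runx3. It was found in 16.8% of all promoters, and 1.81% held it 2 or more times. The proximal promoters of Runx1 and Runx3 and the promoter of Cbfb held no match. No proximal window of Runx2 was among the promoters searched. TGCGGT, the second known form of the core, was found once, in the Runx2 distal promoter, against 6.45% of all promoters. The AP-1 motif TGANTCA, present in 7.81% of promoters, was in none of the 6 windows. E-boxes of the form CANNTG, which MyoD binds, numbered 3 in the Runx1 distal, 2 in the Runx2 distal, 1 in the Runx3 distal and 1 in the Runx3 proximal window, but 72.3% of all promoters held at least 1. These matches describe letters in short windows and were not measurements of binding.

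The libraries held between 13175524 and 14921057 reads assigned to genes. Values are normalized counts, which are reads divided by a size factor for each library, and 1 read was worth between 0.799 and 1.15 normalized counts. Dmd was between 6169 and 8155 in WT and between 3461 and 4400 in mdx5cv muscles, with no overlap between the genotypes. Muscle fiber genes (Acta1, Ckm, Myh4, Myh1, Tnnt3, Pvalb and Mb) summed to between 684102 and 1178400 in every muscle, so the labelled tissue was present throughout. The lowest sum was that of mdx5cv muscle 4. Of these 7 genes Mb was called lower in mdx5cv muscles. The 6 others had log2 fold changes from -0.75 to -0.07, of which Ckm (-0.75) and Tnnt3 (-0.63) had a limma adjusted p under 0.05. The 2 genotypes were set against each other in limma, on values of log2(normalized count + 1), for the 13677 genes whose normalized counts averaged 10 or more. A gene could pass this filter through a single genotype. Among the genes listed below, Spi1, Itgal, Mmp13, Chrng, Itgam, Mymk and Mymx, with others, passed through their mdx5cv values, and Dach2 through its WT values. A gene was called at a Benjamini-Hochberg adjusted p under 0.05 with a log2 fold change of at least 1 in either direction. By that rule 10.3% of the genes tested (1414) were called higher and 3.27% (447) lower in mdx5cv muscles. When every library was instead scaled to the same total, these counts were 2255 and 209, and the median log2 difference over all genes tested moved from 0.00 to 0.36.

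Runx1 (chromosome 16, 92601466 to 92826149, minus strand, GRCm38) was the Runx gene with the most reads in both genotypes. In WT muscles 1 to 4 its normalized counts were 39.0, 53.7, 48.6 and 60.4. In mdx5cv muscles 1 to 4 they were 574, 453, 462 and 941. Every mdx5cv muscle thus lay far above every WT muscle, and mdx5cv muscle 4 stood 1.64-fold above the next. The means were 50.4 ± 9.03 (SD, n = 4) and 607 ± 229 (SD, n = 4), a ratio of 12.0. On the log2(normalized count + 1) scale the difference was 3.51 with a standard error (SE) of 0.21, which placed Runx1 at position 144 when the 13677 genes tested were ordered from the highest difference down. Without mdx5cv muscle 4 the difference was 3.28.

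Runx2 (chromosome 17, 44495987 to 44814797, minus strand) had lower normalized counts than Runx1 in every muscle, and levels per kb are given below. Its normalized counts were 16.0, 13.2, 17.7 and 21.2 in WT muscles 1 to 4. They were 85.2, 75.5, 63.9 and 113 in mdx5cv muscles 1 to 4. The genotypes again did not overlap, and muscle 4 was the highest of each genotype, as it was for Runx1. The means were 17.0 ± 3.35 and 84.5 ± 21.2 (SD, n = 4 each), and the log2 difference was 2.23 (SE 0.22), at position 505.

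Runx3 (chromosome 4, 135120652 to 135177990, plus strand) was close to absent from WT muscle. Its reads numbered 1, 1, 0 and 5 in WT muscles 1 to 4, or normalized counts of 1.15, 1.10, 0 and 5.30. In mdx5cv muscles 1 to 4 the normalized counts were 19.5, 16.0, 9.0 and 36.8. The lowest mdx5cv muscle was above the highest WT muscle, with mdx5cv muscle 4 again highest. With 7 reads in all WT muscles and 94 in all mdx5cv muscles, the ratio per size factor was 10.8, with a 95% Clopper-Pearson interval of 5.06 to 27.7 that covers counting error only. The log2 difference of 3.05 (SE 0.60, position 253) depended on the added 1 because the WT values were so small. Runx3 passed the filter on low values, with a mean of 11.1, through its mdx5cv values alone.

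Cbfb (chromosome 8, 105170674 to 105217989, plus strand) was the exception among the 4 genes. Its normalized counts were 887, 1038, 858 and 788 in WT muscles 1 to 4. They were 933, 788, 915 and 776 in mdx5cv muscles 1 to 4. The 2 genotypes covered nearly the same range. The means were 893 ± 105 and 853 ± 82.5 (SD, n = 4 each), and the log2 difference was -0.06 (SE 0.11), at position 7562 of 13677. The sign of so small a difference was not fixed, since it was 0.01 without WT muscle 2 and 0.29 with equal totals. Runx1, Runx2 and Runx3 were higher in each mdx5cv muscle than in any WT muscle, an arrangement that 20.3% of all genes tested (2774) also had, and nothing is read from these member counts because the family was chosen on them.

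**Figure D1:**
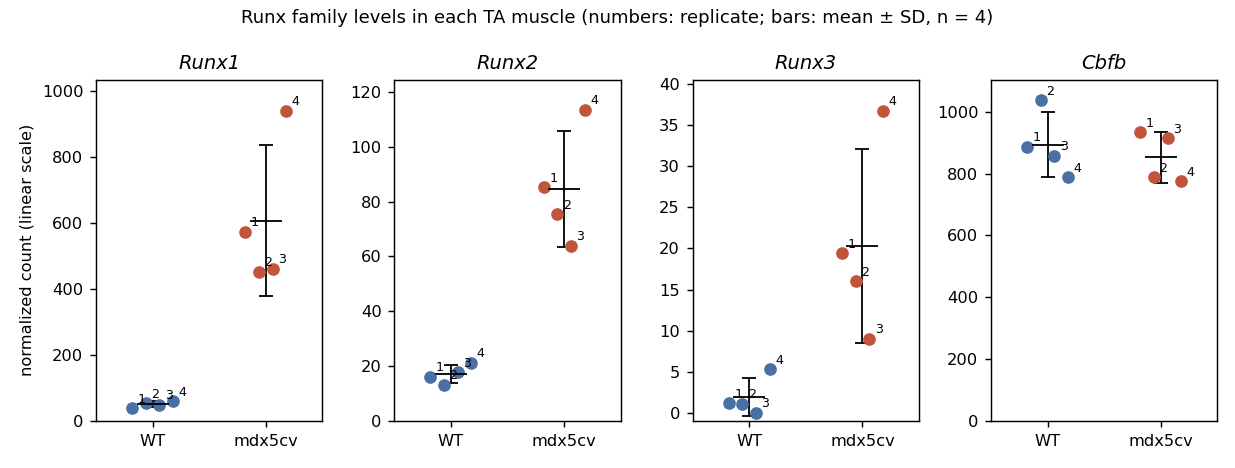
Normalized counts (vertical axes, linear, a separate scale for each gene) of Runx1, Runx2, Runx3 and Cbfb in the WT (blue) and mdx5cv (red) TA muscles, numbered by replicate, with black bars for the mean ± SD of 4 muscles. For the 3 Runx genes all red points lie above all blue points and mdx5cv muscle 4 is highest, from 36.8 for Runx3 to 941 for Runx1, whereas the Cbfb points of both genotypes share the range from 776 to 1038.

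To allow for gene length, the 4 genes were set side by side as normalized counts per kb of merged exons. These exons measured 12.025 kb for Runx1, 8.837 kb for Runx2, 5.003 kb for Runx3 and 3.48 kb for Cbfb. On that scale Cbfb stood far above the Runx genes, with 257 per kb in WT and 245 per kb in mdx5cv muscles. Runx1 followed with 4.19 and 50.5, Runx2 with 1.93 and 9.57, and Runx3 with 0.377 and 4.06 per kb. In WT muscles no neighbors in this order overlapped. In mdx5cv muscles Runx2 (7.23 to 12.8 per kb) and Runx3 (1.80 to 7.35 per kb) overlapped narrowly between muscles, although Runx2 was the higher of the pair within each muscle.

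The make-up of the family also differed between genotypes. Runx1 accounted for 61.3%, 72.3%, 66.9% and 59.2% of the summed Runx level per kb in WT muscles 1 to 4, and for 77.9%, 76.2%, 81.0% and 79.5% in mdx5cv muscles 1 to 4. Runx2 accounted for 24.1% to 34.4% in WT and 13.0% to 17.3% in mdx5cv muscles. Runx1 therefore had the larger share, and Runx2 the smaller, in every mdx5cv muscle compared with every WT muscle. Runx3 made up 5.09% ± 5.28 in WT and 6.02% ± 1.57 in mdx5cv muscles (SD, n = 4 each), and its WT share ran from 0 to 12.5% on at most 5 reads per muscle. Without WT muscle 4 the mean WT share of Runx3 was 2.63%, and with coding length it was 2.86%. With coding length in place of exon length the mean Runx1 shares were 77.0% and 87.3%, so the levels of the shares rest on the gene lengths used.

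The amount of Runx RNA relative to Cbfb RNA also had separate ranges in the 2 genotypes. The summed Runx level per kb was 0.0259 ± 0.00792 of the Cbfb level per kb in WT muscles (SD, n = 4; 0.0207 to 0.0374). It was 0.267 ± 0.118 in mdx5cv muscles (SD, n = 4; 0.180 to 0.441). Cbfb RNA was thus still the more abundant per kb in each of the 8 muscles. These are RNA levels, and protein was not measured.

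**Figure D2:**
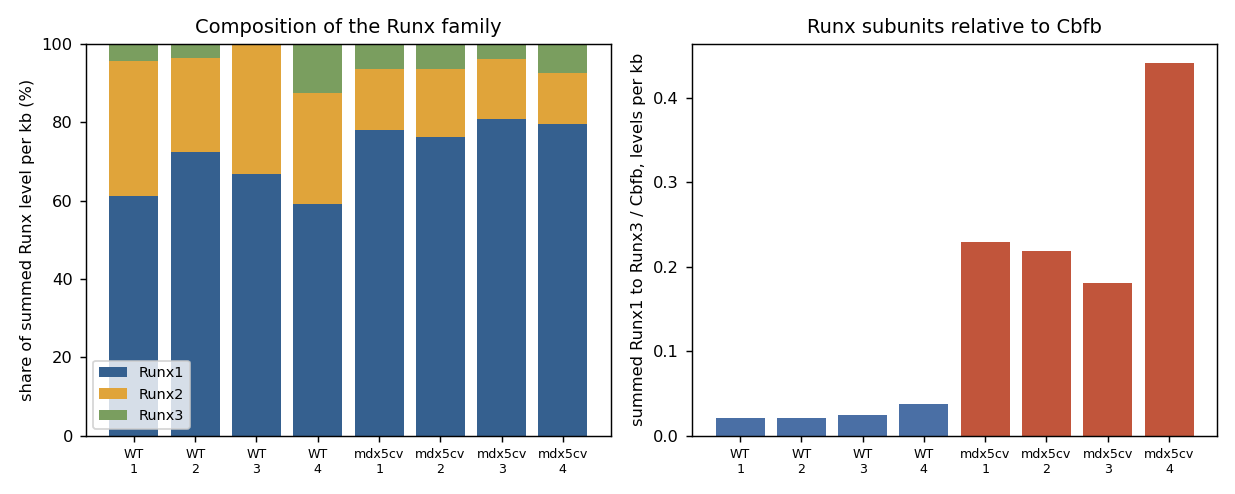
Left, percent of the summed level per kb of exon held by Runx1, Runx2 and Runx3 in each muscle; right, the summed Runx level divided by the Cbfb level, both per kb, in each muscle (WT blue, mdx5cv red). The Runx1 share is 59.2% to 72.3% in WT and 76.2% to 81.0% in mdx5cv muscles, and the ratio stays below 1 in all muscles, with its highest value of 0.441 in mdx5cv muscle 4.

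Reads from the opposite strand were considered, since the library kit keeps strand but the strand setting used in counting is not given in the sources used here. Runx2os1, an antisense RNA within Runx2, had 0, 0, 2 and 1 reads in WT muscles 1 to 4 and 12, 5, 6 and 12 reads in mdx5cv muscles 1 to 4. It was below the filter and was not tested, and part of its reads could belong to Runx2. The other antisense RNAs, Runx2os2 and Runx2os3 in Runx2, Gm26626 in Runx1 and Gm16224 in Runx3, had at most 1 read in any muscle. Supt3, a subunit of transcription coactivator complexes whose gene overlaps Runx2 on the opposite strand, had a log2 fold change of 0.25 (SE 0.23, limma adjusted p = 0.415).

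The genes around the family were tested as neighbors. Within 250 kb of the 4 genes lay 69 annotated genes, of which 25 could be tested, 3 were called higher by limma and none was called lower, against 10.3% and 3.27% of all genes tested. At an unadjusted p under 0.05 there were 12 with higher and 6 with lower means. All genes were not counted at that threshold. At the stricter adjusted p under 0.05, with no minimum fold, 2854 of all 13677 genes tested were higher and 2743 lower. The Runx genes each sit near a chloride intracellular channel gene (Clic6, Clic5 and Clic4), an arrangement the paralogous regions share. Clic4, beside Runx3, rose from 343 ± 31.4 to 709 ± 121 normalized counts (SD, n = 4 each; log2 fold change 1.03, SE 0.13, limma adjusted p = 4.95e-05). Clic5, beside Runx2, had a log2 fold change of -0.56 (SE 0.13, limma adjusted p = 0.00385), short of the minimum fold, and Clic6, beside Runx1, had at most 3 reads in any muscle. The 2 other calls were near Cbfb, namely Exoc3l (1.34, SE 0.26, limma adjusted p = 0.00133) and Fbxl8 (1.19, SE 0.41, limma adjusted p = 0.0319), whose WT mean was 6.84 normalized counts.

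The corepressors, proteins that Runx factors recruit to lower transcription, mostly stayed below the minimum fold. Of 18 genes 1 was called higher and 0 lower, against 10.3% and 3.27% of all genes tested, and their median log2 fold change was 0.12 beside 0.00 for all genes. Tle3, a Groucho-type corepressor that binds the C-terminal motif of Runx proteins, was 121, 149, 153 and 156 in WT muscles 1 to 4 and 309, 256, 295 and 358 in mdx5cv muscles 1 to 4. The ranges did not overlap, and Tle3 rose by 1.06 (SE 0.13, limma adjusted p = 4.97e-05). This is just past the minimum fold, and the call was lost without WT muscle 1 (0.98), without mdx5cv muscle 4 (0.98) and with centring on the median (0.97). The 17 others ranged from -0.60 to 0.73. Among them 7 had an adjusted p under 0.05 without the minimum fold, 3 with higher and 4 with lower means in mdx5cv muscles. With Tle3, 4 of the 18 were thus higher and 4 lower by that looser rule, against 2854 and 2743 of all 13677 genes tested. Hdac3, a histone deacetylase, had -0.56 (limma adjusted p = 0.0033). Runx1t1, known as ETO from its fusion to RUNX1 in leukemia, had 0.21 (limma adjusted p = 0.419).

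Among 16 coactivators and enzymes that modify Runx proteins, again 1 was called higher and 0 lower, against 10.3% and 3.27% of all genes tested. Their median was -0.00. Cdk6, a cell cycle kinase that binds Runx1 and hinders its activity in myeloid cells, was 60.7, 38.4, 56.4 and 48.7 in WT muscles 1 to 4 and 265, 261, 223 and 387 in mdx5cv muscles 1 to 4. Cdk6 rose by 2.44 (SE 0.19, limma adjusted p = 1.50e-06) and kept its call in every alternative run. The histone acetyltransferases Ep300 (-0.11) and Crebbp (0.12) differed by little more than their errors (SE 0.09 and 0.10; limma adjusted p = 0.348 and 0.399). The ubiquitin ligases Smurf1 (0.36), Smurf2 (-0.27), Stub1 (-0.37) and Wwp1 (-0.68), which can mark Runx proteins for degradation, did not reach the minimum fold. Their limma adjusted p values were 0.0543, 0.0326, 0.0258 and 0.00184 in that order. Among the genes of the list not called, 6 had an adjusted p under 0.05, 2 with higher and 4 with lower means in mdx5cv muscles. With Cdk6, 3 of the 16 were thus higher and 4 lower without the minimum fold, against 2854 and 2743 of all 13677 genes tested.

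The DNA-binding factors that act beside Runx proteins included myeloid and muscle factors that rose. Of 15 genes 14 were tested, 4 were called higher and 0 lower, against 10.3% and 3.27% of all genes tested, and the median was -0.03. Spi1 encodes PU.1, the myeloid partner of Runx1. Its normalized counts were 11.5, 9.87, 3.32 and 8.47 in WT and 108, 53.8, 52.2 and 130 in mdx5cv muscles 1 to 4 (3.22, SE 0.38, limma adjusted p = 3.19e-05). Cebpa, another myeloid factor, rose from 39.3 ± 15.0 to 120 ± 42.5 (SD, n = 4 each; 1.61, SE 0.27, limma adjusted p = 0.000486). The 2 factors that have been tied to Runx1 in muscle also rose: Fos, a subunit of AP-1, from 31.8 ± 6.81 to 102 ± 16.7 (1.65, SE 0.19, limma adjusted p = 2.82e-05), and Myod1, which encodes MyoD, from 180 ± 42.1 to 490 ± 120 (1.44, SE 0.20, limma adjusted p = 0.000106). The other AP-1 subunit listed, Jun, had 0.26 (limma adjusted p = 0.0608). The endothelial Ets factor Erg had -0.79 (SE 0.19, limma adjusted p = 0.00469), short of the minimum fold, while Ets1 and Fli1 had -0.07 and -0.05. Gata1 had no reads.

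Of 11 genes that respond to denervation, the setting in which Runx1 was found in muscle, 6 were called higher and 1 lower. The shares of all genes tested were 10.3% and 3.27%, and the median of the list was 1.97. Chrng, the fetal subunit of the acetylcholine receptor, had 1 read in all WT muscles, in muscle 4, and 119, 52, 77 and 288 reads in mdx5cv muscles 1 to 4. The ratio per size factor was 433, with a 95% Clopper-Pearson counting interval of 77.3 to 17117. Myog, which encodes myogenin, rose from 40.4 ± 6.62 to 407 ± 245 (3.14, SE 0.30, limma adjusted p = 7.61e-06). Dach2, a repressor of Myog in innervated muscle, moved in the opposite direction. Its normalized counts were 140, 203, 111 and 79.4 in WT and between 0.799 and 3.77 in the mdx5cv muscles, and it fell by 5.60 (SE 0.37, limma adjusted p = 6.23e-07). Musk, the receptor kinase that organizes the synapse and is itself raised by denervation, was 169 ± 29.7 and 168 ± 33.7 (-0.01, SE 0.17, limma adjusted p = 0.967). Of the 11 genes 4 were thus not called, and Chrng and Ncam1 in this list are also markers of regenerating fibers.

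Genes of bone and cartilage formation linked to Runx2 were split between matrix genes and bone-restricted genes. Of 21 genes 8 had enough reads to be tested, 4 were called higher and 0 lower, against 10.3% and 3.27% of all genes tested. Spp1, which encodes osteopontin and is also made by macrophages, was 9.17, 23.0, 16.6 and 21.2 in WT and 531, 198, 318 and 1195 in mdx5cv muscles 1 to 4 (4.67, SE 0.44, limma adjusted p = 5.98e-06). Col1a1 and Col1a2, the chains of type I collagen that fibroblasts make as well, rose by 3.13 and 2.29 (SE 0.20 and 0.18, limma adjusted p = 4.69e-07 and 2.02e-06). Mmp13, a collagenase of bone and cartilage, rose by 2.93 (SE 0.66, limma adjusted p = 0.00338), but its groups overlapped, since WT muscle 2 (23.0) was above mdx5cv muscle 1 (16.7). The genes that define osteoblasts were below the filter. Sp7 had 5 reads in all WT and 17 in all mdx5cv muscles, Ibsp 3 and 35, and Bglap 0 and 2, while Sost and Bglap3 had none. Col10a1, a collagen of growing cartilage, had 0 reads in all WT and 27 in all mdx5cv muscles. DESeq2, which was run on all genes with reads and has its own filter on low means, called 6 genes of the list higher. Ibsp and Col10a1 were among them (DESeq2 adjusted p = 0.0418 and 0.00216), although Ibsp had no reads in mdx5cv muscle 1. Alpl, the alkaline phosphatase of bone, had -0.61 (SE 0.26, limma adjusted p = 0.0752).

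Of 18 blood cell genes linked to Runx1 and Runx3, 3 were tested. Of these 2 were called higher and 0 lower, against 10.3% and 3.27% of all genes tested. Csf1r, the receptor for macrophage colony-stimulating factor and a known Runx1 target, was 92.8, 140, 124 and 174 in WT and 754, 664, 512 and 1368 in mdx5cv muscles 1 to 4 (2.56, SE 0.26, limma adjusted p = 9.27e-06). Itgal, the integrin chain of LFA-1 on leukocytes, rose from 7.66 ± 3.12 to 53.0 ± 19.9 (SD, n = 4 each; 2.65, SE 0.33, limma adjusted p = 4.97e-05). It passed the filter on low values through its mdx5cv values alone. Zbtb7b, which Runx factors silence in CD8 T cells, had -0.45 (SE 0.16, limma adjusted p = 0.0418), short of the minimum fold. The other 15 genes were under the filter. Cd4, which Runx factors silence in CD8 T cells, had 7 reads in all WT and 74 in all mdx5cv muscles, and Cd8a, which Runx3 activates, had 0 and 19. The granulocyte genes Mpo and Elane and the cytokine genes Csf2 and Il3 had at most 1 read in all.

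No gene of the 5 lists other than the denervation genes was called lower by limma, edgeR or DESeq2. At an unadjusted p under 0.05 in limma, lower means in mdx5cv muscles were found for 4 of the 18 corepressors, 5 of the 16 coactivators and modifying enzymes, 2 of the 14 DNA-binding partners, 3 of the 8 bone and cartilage genes and 1 of the 3 blood cell genes. All genes were not counted at that threshold. At the stricter adjusted p under 0.05, with no minimum fold, 2743 of all 13677 genes tested had lower means, so nothing particular to the lists is read from these counts.

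**Figure D3:**
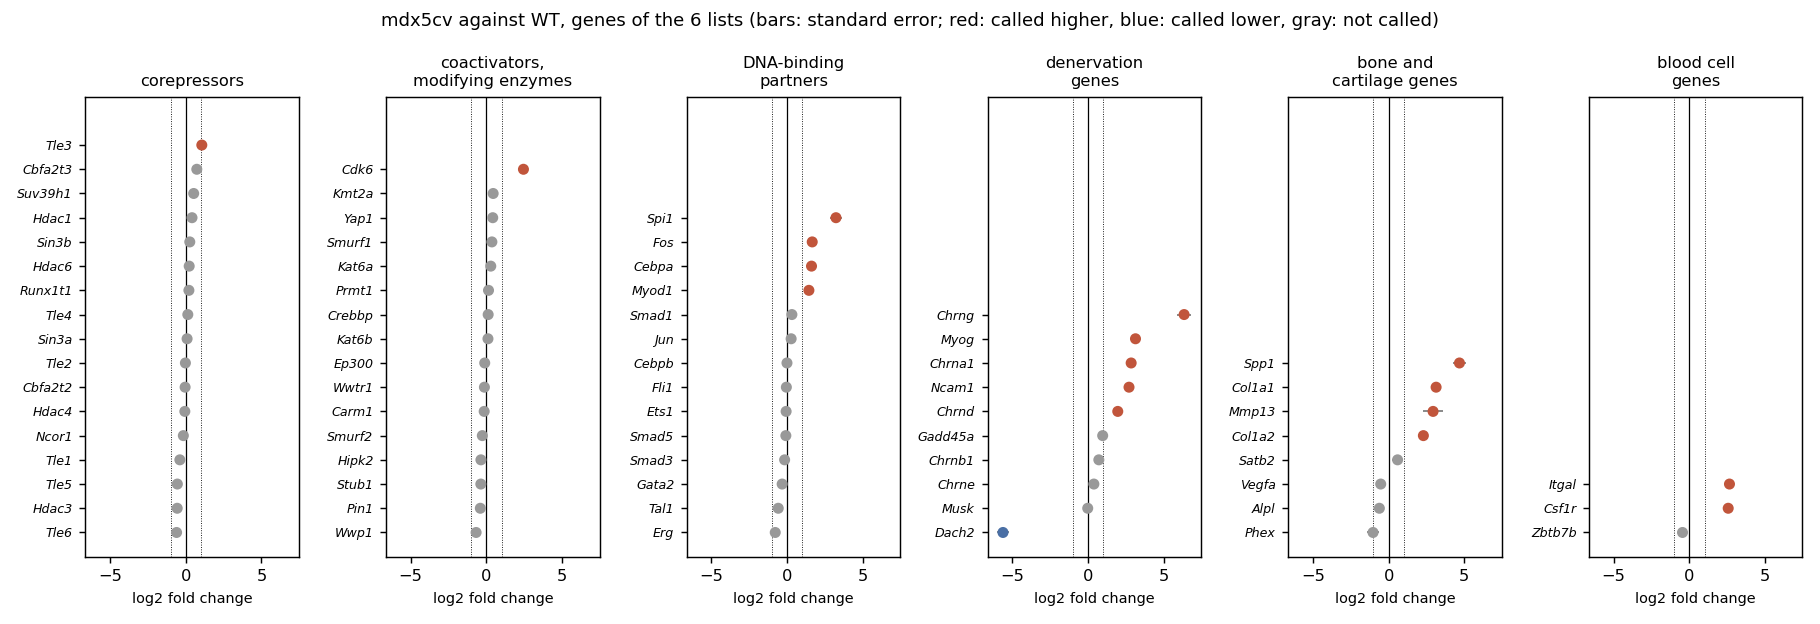
Log2 fold change of mdx5cv against WT (horizontal axes, limma on log2(normalized count + 1), bars for the SE) of the tested genes reported here in 6 lists of Runx partners and linked genes; red marks genes called higher, blue lower and gray not called, and dotted lines mark -1 and 1. The corepressors and coactivators lie between -0.68 and 0.73 apart from Cdk6 at 2.44 and Tle3 at 1.06, and Dach2 at -5.60 is the lone blue point.

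Several cell types that can hold Runx RNA differed in their markers between the genotypes, and in whole muscle more cells of a type and more RNA per cell cannot be told apart. Of all genes tested 10.3% were called higher and 3.27% lower, and the marker calls below stand beside those shares. All 8 macrophage markers were called higher, and their summed normalized count was 556 to 837 in WT and 4174 to 10014 in mdx5cv muscles. All 6 markers of regenerating fibers (Myh3, Myh8, Mymk, Mymx, Chrng and Ncam1) were called higher, and their sum was 166 to 182 in WT and 2288 to 8733 in mdx5cv muscles. Of 5 myoblast markers 2 were called higher (sums of 372 to 508 and of 822 to 1872), and of 6 fibroblast markers also 2 (3593 to 6751 and 9142 to 14482). The 2 fibroblast markers called were Col1a1 (means of 780 in WT and 6996 in mdx5cv muscles) and Lum (1.19). Pdgfra (0.63) and Dpt (0.46) had higher means in mdx5cv muscles, and Dcn (-0.24) and Ly6a (-0.30) lower ones. The sums of all 4 groups did not overlap between genotypes, but for the fibroblast sum this rested on Col1a1. In mdx5cv muscle 4, in which Runx1, Runx2 and Runx3 were highest, the sum of the muscle fiber genes was lowest (684102). These 4 sums were highest there. So were the sums of the T and NK cell, mast cell and osteoblast and tendon markers given next. The part of these cells in the Runx levels was not tested.

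Lymphocytes, the cells best known for Runx3, left few reads. None of the 8 T and NK cell markers passed the filter, and their sum was 2.29 to 6.58 in WT and 25.0 to 60.7 in mdx5cv muscles, beside 0 to 5.30 and 9.0 to 36.8 for Runx3. DESeq2, which was run on all genes with reads and has its own filter on low means, called 5 of the 8 higher. It called 1916 of all 28501 genes with reads higher, and any genes that its filter removed count among the 28501. In mdx5cv muscles 1 to 4 the T and NK sums were 25.0, 57.5, 42.3 and 60.7, beside Runx3 levels of 19.5, 16.0, 9.0 and 36.8. Muscle 4 was thus the highest for both, whereas muscle 1 was the lowest for the sum and second for Runx3. The 4 B cell markers summed to 4.42 to 17.6 in WT and 1.80 to 12.8 in mdx5cv muscles. Of 4 mast cell markers 1 was called higher by limma, against 10.3% of all genes tested, and 0 by edgeR or DESeq2 (sums of 47.0 to 87.8 and of 93.6 to 158). Of 5 osteoblast and tendon markers 2 were tested and none was called by limma, with adjusted p of 0.0874 and 0.485. In limma 1 had an unadjusted p under 0.05, while edgeR called 0 and DESeq2, run on all genes with reads, called 1 higher. The sums overlapped (35.0 to 82.3 in WT and 70.4 to 127 in mdx5cv muscles). The 4 endothelial markers were not called by limma, edgeR or DESeq2, with log2 fold changes from -0.88 to -0.61 that all had a limma adjusted p under 0.05, and the sums were 2394 to 2882 and 1438 to 1878. The part of these cells was not tested.

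**Figure D4:**
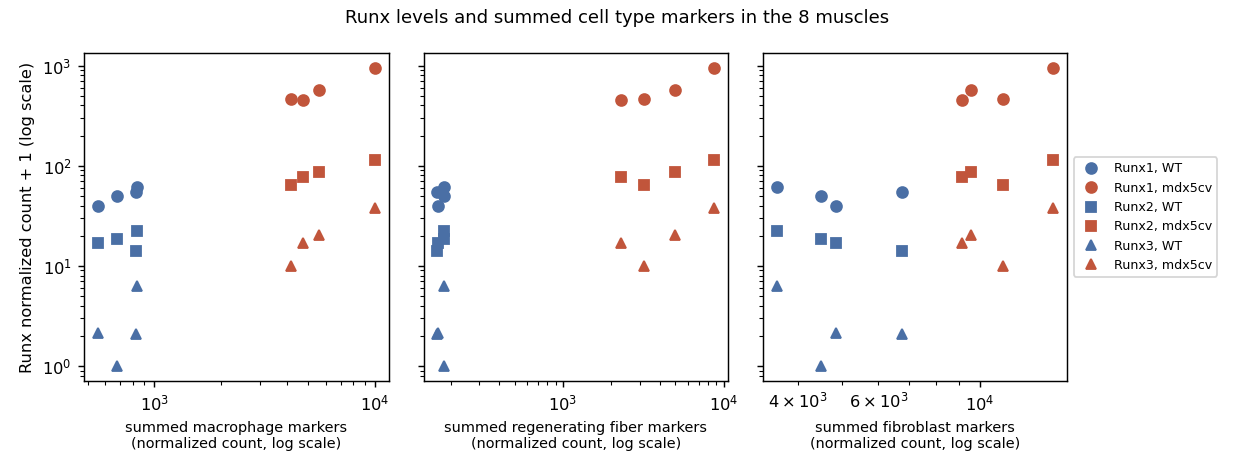
Normalized counts + 1 of Runx1 (circles), Runx2 (squares) and Runx3 (triangles) on a log axis against the summed normalized counts of macrophage, regenerating fiber and fibroblast markers, also on log axes, in the WT (blue) and mdx5cv (red) muscles. The 2 genotypes form separate clouds in each panel, and mdx5cv muscle 4 is at the upper right of each, with sums of 10014, 8733 and 14482. In the fibroblast panel the separation along the horizontal axis rests on Col1a1.

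How closely the 3 Runx genes followed one another across muscles moved with single libraries. After the mean of each genotype was taken away, the Pearson correlation over 8 muscles was 0.75 between Runx1 and Runx2, 0.67 between Runx1 and Runx3 and 0.70 between Runx2 and Runx3. Without mdx5cv muscle 4 these values were 0.45, 0.54 and 0.57 over 7 muscles. With each muscle left out in turn they ranged from 0.45 to 0.95 (without WT muscle 2), from 0.54 to 0.80 (without WT muscle 3) and from 0.57 to 0.96 (without WT muscle 3). The muscles share their library, scaling and cell make-up across genes, so the values are descriptions. Before the genotype means were taken away the values were 0.99, 0.92 and 0.93, and those mostly restate the separation of the 2 genotypes.

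Among 7639 genes whose normalized counts averaged 100 or more, those nearest to each member in Pearson correlation over the 8 muscles were sought. For Runx1 these were Lyz2 (0.999), C3ar1, Gpnmb, Fcgr3 and Lrrk1, of which Lyz2 encodes lysozyme of myeloid cells, C3ar1 the receptor for complement C3a and Fcgr3 an antibody receptor. For Runx2 they were Pld3 (0.997), Cdkn1a, Tmsb10, Abca1 and Mymk, where Cdkn1a encodes the cell cycle inhibitor p21 and Mymk the fusion protein myomaker. For Runx3 they were Setd1b (0.992), Wwp2, Mki67, Plekhm1 and Kif13b, where Mki67 encodes the proliferation marker Ki-67. A correlation of at least 0.95 was reached by 391 genes for Runx1, 358 for Runx2 and 90 for Runx3, so these names are the tips of long lists that the genotypes separate in the same way. For Cbfb only Gtf2h5 (0.965) and Rdm1 (0.954) reached it.

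After the genotype means were taken away, Lyz2 stayed among the 5 genes nearest to Runx1 (0.976), behind Wdr81 (0.989), Arpc1b (0.987) and Zfp568 (0.977). Septin9 (0.975) was nearest to Runx2, with Pld3 (0.966) still among the first 5. Ankrd52 (0.971) and Setd1b (0.971) were nearest to Runx3, with Mki67 (0.952) still among the first 5. For Cbfb the nearest was Fahd2a (0.985), and Gtf2h5 (0.975) was still among the first 5. All rest on 8 muscles, with mdx5cv muscle 4 far from the others for the Runx genes.

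The Runx core was also counted in the promoters of all genes that were called. TGTGGT was in 12.3% of 12928 promoters of genes tested, in 16.3% of 1365 promoters of genes called higher and in 9.16% of 404 promoters of genes called lower. TGCGGT went the opposite way, with 9.15%, 6.67% and 10.6%. The 2 forms of the core, which differ in 1 base, thus had opposite orders over the same promoters. The other motifs counted were not flat either. In the same order the AP-1 motif was in 5.14%, 8.06% and 6.44% of promoters, and E-boxes were in 64.2%, 69.2% and 72.5%. A higher share among genes called higher than among genes tested was thus not limited to the Runx core. The 1365 promoters belonged to 1050 genes and the 404 to 308. No test was made of these shares, and a match is not a bound site.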

How the data were processed

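The authors deposited a signal for each gene and muscle, namely normalized counts (reads over the size factor of that sample), in 1 table of 55401 genes. The submitters' processing notes list FastQC, Trim Galore 0.6.4, STAR 2.6.0c, SAMtools 1.9, featureCounts, MultiQC 1.6, DESeq2 1.26.0, R 3.6.2 and the mm10 genome. The labels describe a stranded total RNA kit. Reads were recovered from the deposited values (100% whole within 0.01), with 13175524 to 14921057 per muscle. Between replicates, chi-square over its degrees of freedom was 8.59 to 38.4, so no library was a copy of another.

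The comparison by genotype was made on log2(normalized count + 1) by limma 3.58.1 (R 4.3.3), using a variance trend, no covariate, two-sided tests and Benjamini-Hochberg adjustment over 13677 genes with a mean of at least 10. Fold changes on this scale understate changes of low genes. As alternatives, the recovered reads were tested by edgeR 4.0.16 and by DESeq2 1.42.0. DESeq2 was run on all genes with reads, with its own independent filtering of low means. The scripts were tested on simulated data. Exon lengths came from GENCODE M21 and promoters from RefSeq (GRCm38.p6). The members and the gene lists were chosen with earlier results of these data known. In each list every called gene was to be named, or the 3 largest rises and the 3 largest falls where more than 6 were called; other list genes were named after their values were seen. The 5 genes nearest in correlation were named for each member. The counts cover whole lists, but 2 list genes are not reported here by name. No sample column was left unused.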

Additional observations from a re-analysis of the deposited data

Results flagged for a closer look

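Over 74 sets of 4 muscles, each holding 1 genotype's values of a gene or marker sum on the log2(normalized count + 1) scale or of a family share, 2 had a lone muscle far from the other 3 by Dixon's criterion, where chance gives about 3.7 (1 in 20). Chrng was at 1.04 in WT muscle 4 and at 0 in the other WT muscles, which is a single read. Ncam1 was at 6.00 in WT muscle 1 and between 6.45 and 6.49 in the others. Neither of these was Runx1, Runx2, Runx3 or Cbfb, although mdx5cv muscle 4 was the highest of its genotype for all 3 Runx genes.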

How the results depend on the processing

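Over 24 results and 367 values under alternatives, 337 were scored as the same, 30 as moved and 0 as reversed. A log2 difference or share was the same if it moved by less than the replicate spread. A list count could differ somewhat and still be scored the same, as with 6 bone and cartilage genes called higher by DESeq2 against 4. Dropping the variance trend or adding the replicate block left the members' log2 differences unchanged by construction. Only the log2 differences of Runx1, Runx2 and Runx3 could be scored as reversed, so the 0 leaves out Cbfb, whose sign did change. For most values that moved the alternative's own construction sets the change, and otherwise the cause was not tested. With a pseudocount of 10 the log2 difference was 1.79 for Runx2 and 1.29 for Runx3, and with 0.1 it was 4.25 for Runx3. With equal totals it was 2.58 for Runx2 and 0.29 for Cbfb. With coding length from GENCODE M21, chosen after seeing the data, the shares in WT and mdx5cv muscles were 77.0% and 87.3% for Runx1 and 20.2% and 9.63% for Runx2, and 2.86% and 3.10% for Runx3; the coding length of the RefSeq protein was not run because no protein table was used here. Corepressors called higher numbered 3 with equal totals, 0 with centring on the median, 4 with no minimum fold and 0 with a log2 minimum of 2, and from 0 to 1 with 1 muscle left out. With no minimum fold the corepressors called lower were 4, the coactivators and modifying enzymes called higher 3 and lower 4, and the DNA-binding partners, the bone and cartilage genes and the blood cell genes called lower 1 each. Of all 13677 genes tested 2854 were then called higher and 2743 lower. With a log2 minimum of 2 there was 1 DNA-binding partner called higher. When each muscle had to reach a normalized count of 10, which gives no value for Runx3, 2 bone and cartilage genes and 1 blood cell gene were called higher and 0 denervation genes lower. Under that filter 3 DNA-binding partners and 4 denervation genes were called higher, which was scored as the same. Of all 11784 genes then tested 729 were called higher and 275 lower. Bone and cartilage genes called lower were 1 with centring, and from 0 to 1 with 1 muscle left out (1 without mdx5cv muscle 1). Blood cell genes called higher were 6 with no filter and 4 with DESeq2. Of 19 named list genes 18 kept their call in all values, and Tle3 lost it in 3.

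With 1 muscle left out the log2 difference was 3.28 to 3.63 for Runx1, 2.08 to 2.36 for Runx2, 2.64 to 3.53 for Runx3 and -0.12 to 0.01 for Cbfb. Replicate numbers were shared by the genotypes. The deviations of same-numbered muscles correlated by 0.05, 0.03, 0.07 and 0.15, and those of differently numbered muscles by -0.15 to 0.07. Values this small, from so few muscles, cannot settle whether the numbers paired the muscles. With the replicate number as a block 1428 genes were called higher and 454 lower, against 1414 and 447 without the block. At this depth the WT level of Runx3 rests on 7 reads.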
